A study of Mus musculus with 6 samples.

Results

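The carnitine shuttle of inguinal white adipose tissue (iWAT) was examined through its 5 carnitine-dependent acyltransferase genes Cpt1a, Cpt1b, Cpt1c, Cpt2 and Crat and its carrier gene Slc25a20. These 6 genes were listed by name, and their probes were those that the array design annotates with a RefSeq transcript of the gene. All 6 genes were on the array, with 10 probes, among 15306 genes that could be tested. The iWAT was of WT mice and of their Zip13-KO littermates on the C57BL/6J background, 10 weeks old, with 3 arrays of each genotype, and RNA from 1 sample was hybridized to each array. In Zip13-KO mice, a Neo-cassette stands in place of exons 6 to 8 of Slc39a13, the gene of the zinc transporter ZIP13, in every tissue of the body, so a change in the iWAT cannot be assigned to a cell type. All mice were given powdered food, and the line had been backcrossed for at least 7 generations. The sources used here give n = 3 per genotype without saying whether an array is 1 mouse or a pool, and p-values measure the spread between these samples.

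Long-chain fatty acids that have been activated to acyl-CoA cannot pass the inner mitochondrial membrane on their own. CPT1, in the outer membrane, moves the acyl group onto carnitine, the carrier SLC25A20 exchanges the acylcarnitine for free carnitine across the inner membrane, and CPT2, on the inner side, hands the acyl group back to coenzyme A for beta-oxidation. CPT1 is the step that malonyl-CoA inhibits. Of its isoforms, CPT1A is known from the liver and many other tissues, CPT1B from skeletal muscle, heart and brown fat, and CPT1C from neurons, where it lies in the endoplasmic reticulum and has little transferase activity.

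The intensities are given as log2 of the processed signal of a spot after quantile normalization between the 6 arrays, so that 1 unit is a doubling. Slc39a13 itself was measured at 11.29, 10.87 and 10.72 in the WT arrays and at 6.76, 6.66 and 6.47 in the Zip13-KO arrays, which placed every Zip13-KO array below every WT array, in the direction of the labels (log2 fold change -4.33, SE 0.17, adjusted p = 0.00128). Its probe stayed well above background on the 3 Zip13-KO arrays. A gene was called changed at a Benjamini-Hochberg adjusted p under 0.05 in limma, over all genes tested, and a change of more than 1.5-fold. The share of spots well above background was 62.5% to 63.2% for WT and 58.78% to 60.4% for Zip13-KO. None was saturated, and the 10 probes of the shuttle genes were well above background on all 6 arrays.

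Of the 6 shuttle genes, 4 rose in the Zip13-KO iWAT (Cpt1b, Cpt2, Slc25a20 and Crat), Cpt1a fell, and Cpt1c did not pass the test. In the whole comparison 18.5% of the genes tested were called, with 10.2% called higher and 8.28% called lower. The 2 genotypes did not overlap for 5 of the 6 shuttle genes, beside 55.1% of all genes tested (29.2% with every Zip13-KO array above every WT array and 25.9% below). The median log2 fold change was 1.06 over the 6 genes and -0.00 over all genes tested. In this bulk tissue, fewer cells of a type and less RNA per cell cannot be told apart.

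**Figure D1:**
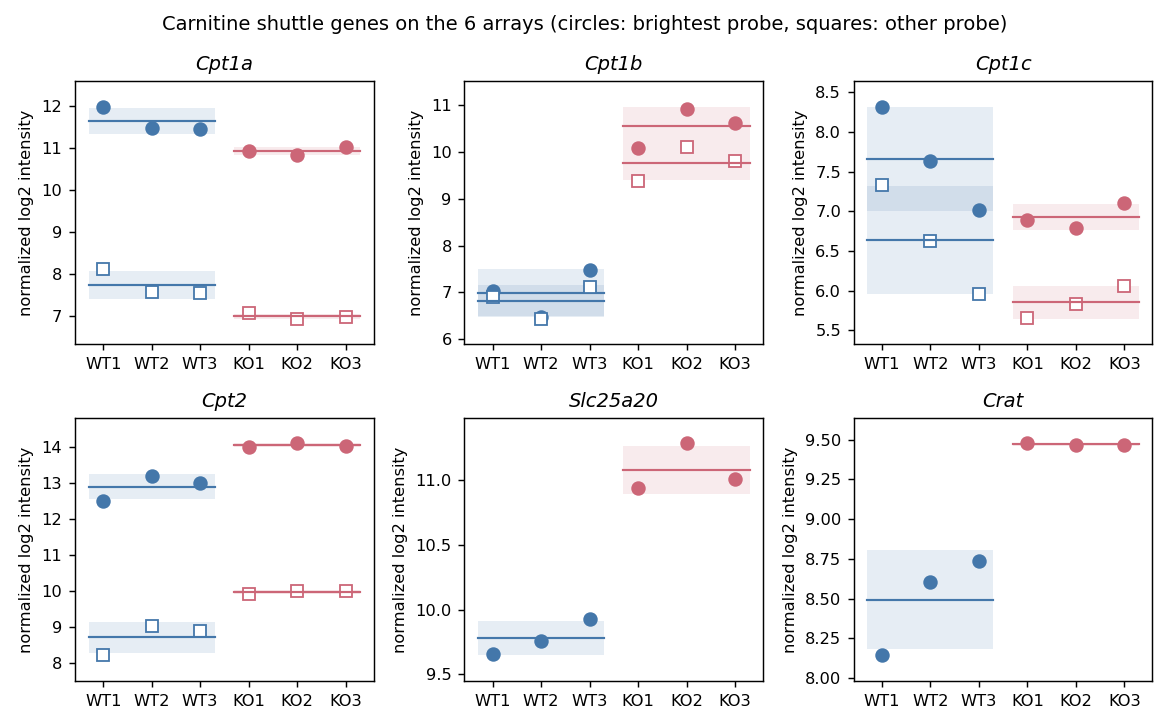
Normalized log2 intensity (vertical axis, a separate scale for each gene) of the 6 carnitine shuttle genes on the 3 WT arrays (WT1 to WT3) and the 3 Zip13-KO arrays (KO1 to KO3). Circles are the brightest probe of a gene, squares its other probe, and lines the group means. For Cpt1b, the Zip13-KO arrays sit at 10.09 to 10.93 and the WT arrays at 6.47 to 7.47 (brightest probe), while for Cpt1c the genotypes overlap.

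Cpt1a (NM_013495), the isoform found in most tissues, fell in the Zip13-KO iWAT. Its brightest probe gave 11.98, 11.46 and 11.44 in WT replicates 1, 2 and 3 and 10.91, 10.82 and 11.02 in Zip13-KO replicates 1, 2 and 3. WT replicate 1 was the highest of the 6 arrays, the other WT arrays were nearly equal to each other, and all Zip13-KO arrays were below all WT arrays. The means were 11.63 ± 0.30 (SD, n = 3) and 10.92 ± 0.10 (SD, n = 3), a log2 fold change of -0.71 (SE 0.16, 95% confidence interval -1.10 to -0.31, adjusted p = 0.0215), or a 1.63-fold lower level. This probe is printed on 10 spots of each array, and the spots of a single array differed by an SD of 0.0495 to 0.0969, less than the arrays of the WT group did. The other Cpt1a probe was far dimmer, at 8.12, 7.57 and 7.55 in WT and 7.07, 6.95 and 6.99 in Zip13-KO arrays, and changed by a similar amount (-0.74, SE 0.17, adjusted p = 0.0252 over all kept probes). Without WT replicate 1 the change was -0.53 (adjusted p = 0.0140), below the 1.5-fold limit, and without Zip13-KO replicate 1 or 2 it was -0.70 (adjusted p = 0.0724) and -0.66 (adjusted p = 0.0748), so the call on Cpt1a was lost without any of these 3 arrays.

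Cpt1b (NM_009948), the muscle and brown fat isoform, moved the other way and by far more. The brightest probe was at 7.02, 6.47 and 7.47 in WT replicates 1, 2 and 3 and at 10.09, 10.93 and 10.63 in Zip13-KO replicates 1, 2 and 3. The genotypes were separated by a gap wider than the spread of either. The WT mean of 6.99 ± 0.50 and the Zip13-KO mean of 10.55 ± 0.43 (SD, n = 3 each) gave a log2 fold change of 3.56 (SE 0.31, 95% confidence interval 2.80 to 4.33, adjusted p = 0.00441), or 11.8-fold. Of the 15306 genes tested, it had the rank 5 when they were ordered from the highest log2 fold change down. The other Cpt1b probe was measured at 6.89, 6.43 and 7.12 in WT and 9.38, 10.11 and 9.80 in Zip13-KO arrays, with the same order of the arrays within each genotype (2.95, SE 0.24, adjusted p = 0.00664 over all kept probes, 7.74-fold).

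Chkb, the gene of choline kinase beta, lies directly upstream of Cpt1b, and RefSeq lists a read-through transcript of both genes that the Cpt1b probes could also bind and that no probe is named for. Chkb was at 11.35, 11.37 and 11.47 in WT and at 11.75, 11.82 and 11.85 in Zip13-KO arrays. All Zip13-KO arrays were above all WT arrays, but the log2 fold change of 0.41 (SE 0.08, adjusted p = 0.0123, 1.33-fold) stayed under the 1.5-fold limit. How much of the Cpt1b signal comes from the read-through transcript was not tested.

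Cpt1c (NM_153679), the neuronal isoform, was lower on average in the Zip13-KO iWAT, without passing the test. Its brightest probe gave 8.32, 7.63 and 7.02 in WT replicates 1, 2 and 3 and 6.89, 6.80 and 7.11 in Zip13-KO replicates 1, 2 and 3. The WT arrays were spread over more than 1 log2 unit, the Zip13-KO arrays lay close together, and WT replicate 3 fell within the Zip13-KO range. The log2 fold change was -0.72 (SE 0.32, 95% confidence interval -1.50 to 0.05, adjusted p = 0.125) between the WT mean of 7.66 ± 0.65 and the Zip13-KO mean of 6.93 ± 0.16 (SD, n = 3 each). The other probe, at 7.33, 6.62 and 5.96 in WT and 5.66, 5.84 and 6.07 in Zip13-KO arrays, also overlapped (-0.79, SE 0.34, adjusted p = 0.129 over all kept probes). The mean changes of Cpt1c and Cpt1a were close in size, and the SE of Cpt1c was about double that of Cpt1a. Its value was -0.39 (adjusted p = 0.203) without WT replicate 1 and -1.04 (adjusted p = 0.0295, past the threshold) without WT replicate 3.

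The change of the isoforms against each other was read within each array, where everything the probes of an array share cancels. Brightness differs between probes of the same transcript, as the 11.63 and 7.74 of the 2 Cpt1a probes in WT show, so the intensities do not rank the isoforms by abundance and only shifts between genotypes are read from them. In WT replicates 1, 2 and 3, log2 Cpt1b minus log2 Cpt1a was -4.95, -4.99 and -3.98, and in Zip13-KO replicates 1, 2 and 3 it was -0.82, 0.12 and -0.40. Every Zip13-KO array lay more than 3 log2 units above every WT array. The mean difference moved from -4.64 ± 0.57 to -0.37 ± 0.47 (SD, n = 3 each), by 4.27 (SE 0.43), a 19.3-fold shift of the ratio towards Cpt1b.

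Against Cpt1c the shift was of the same size. The difference of Cpt1b less Cpt1c was -1.30, -1.16 and 0.45 in WT and 3.20, 4.14 and 3.52 in Zip13-KO arrays, a change of 4.29 (SE 0.63). Cpt1c and Cpt1a kept their distance on average, with Cpt1c less Cpt1a at -3.65, -3.82 and -4.43 in WT and -4.02, -4.02 and -3.91 in Zip13-KO arrays, a change of -0.02 (SE 0.24) with overlapping genotypes. With 3 arrays against 3, a two-sided exact permutation test cannot go below p = 0.1, the value that both pairs with Cpt1b reached (0.15 after adjustment over the 3 pairs compared), while Cpt1c against Cpt1a gave an exact p of 1.

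**Figure D2:**
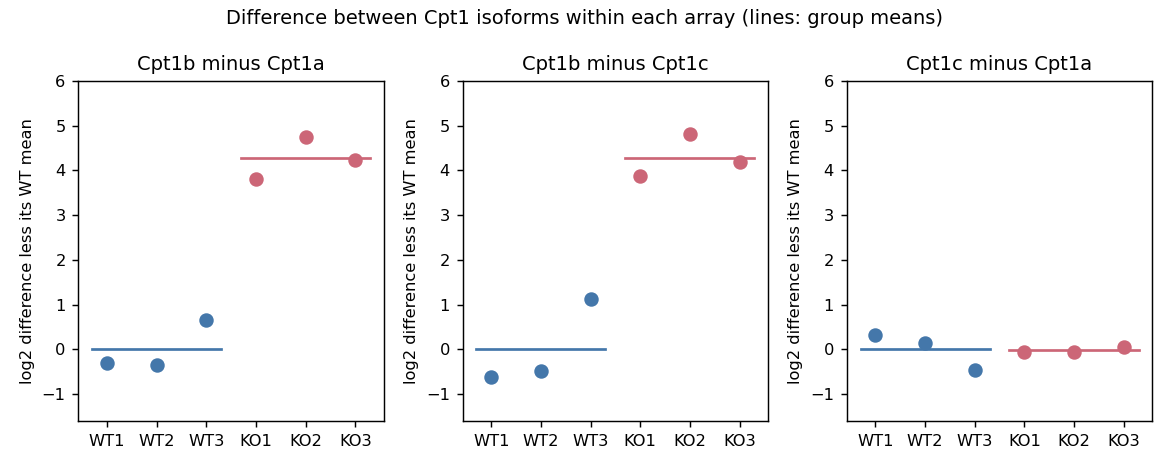
Difference in log2 intensity between 2 Cpt1 isoforms within each array (vertical axis), shown less its own WT mean, for the 3 WT and 3 Zip13-KO arrays. Horizontal lines are group means. Both panels with Cpt1b rise by more than 4 log2 units (4.27 against Cpt1a, 4.29 against Cpt1c), and the panel of Cpt1c against Cpt1a stays around 0 (-0.02).

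Downstream of CPT1, the transcripts for both inner membrane steps rose. Slc25a20 (NM_020520), the carnitine-acylcarnitine carrier, was at 9.66, 9.75 and 9.92 in WT replicates 1, 2 and 3 and at 10.94, 11.29 and 11.01 in Zip13-KO replicates 1, 2 and 3. Both genotypes were tight, and the lowest Zip13-KO array was more than 1 log2 unit above the highest WT array. The mean rose from 9.78 ± 0.13 to 11.08 ± 0.18 (SD, n = 3 each), a log2 fold change of 1.30 (SE 0.12, 95% confidence interval 1.0 to 1.6, adjusted p = 0.00444), or 2.46-fold.

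Cpt2 (NM_009949), which re-forms acyl-CoA in the matrix, was measured at 12.51, 13.19 and 12.99 in WT and at 14.00, 14.10 and 14.03 in Zip13-KO arrays. WT replicate 1 was the lowest of the 6, and the Zip13-KO arrays were almost level. The log2 fold change was 1.15 (SE 0.18, 95% confidence interval 0.72 to 1.57, adjusted p = 0.00831), or 2.21-fold, between means of 12.90 ± 0.35 and 14.04 ± 0.05 (SD, n = 3 each). Its dimmer probe, at 8.22, 9.05 and 8.89 in WT and 9.923, 10.005 and 10.001 in Zip13-KO arrays, showed the same low WT replicate 1 and rose by 1.26 (SE 0.22, adjusted p = 0.0133 over all kept probes).

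Crat (NM_007760), the carnitine acetyltransferase that exchanges acetyl and other short acyl groups between coenzyme A and carnitine, was at 8.14, 8.60 and 8.74 in WT and at 9.48, 9.46 and 9.47 in Zip13-KO arrays. The Zip13-KO arrays were closer to each other than for any other shuttle gene, and WT replicate 1 was again the lowest. The means of 8.49 ± 0.31 and 9.47 ± 0.01 (SD, n = 3 each) gave a log2 fold change of 0.98 (SE 0.16, 95% confidence interval 0.59 to 1.36, adjusted p = 0.00933), or 1.97-fold.

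**Figure D3:**
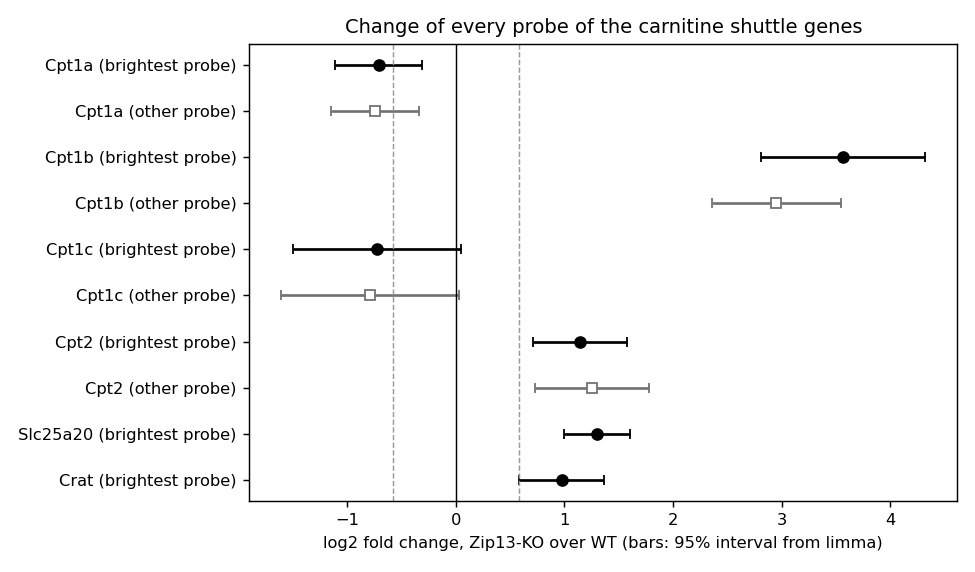
Log2 fold change of Zip13-KO over WT (horizontal axis) for each of the 10 probes of the shuttle genes, with the 95% confidence interval of the limma fit over all kept probes. Filled circles are the brightest probe of a gene, open squares its other probe, and dashed lines the 1.5-fold limit. Probes of the same gene lie on the same side of 0, and only the intervals of the Cpt1c probes reach across it.

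The RefSeq promoter table (GRCm38.p6, 250 bases before to 50 after the start) held 4 of the 6 genes, Cpt1a, Cpt1c, Cpt2 and Slc25a20. These windows were searched on both strands for the PPAR-type direct repeat of AGGTCA spaced by 1 base, with up to 2 mismatches, for the ERR-type site TCAAGGTCA and for the C/EBP-type site TTGCNNAA, which are found in 3.86%, 0.423% and 10.8% of the 32841 promoters of the table. The single match was in Slc25a20, a direct repeat with 2 mismatches on the plus strand at bases 257 to 269 of the window, and the ERR-type letters share AGGTCA with the direct repeat. The 3 windows of the genes that were called are shown, with the match in capitals, to set the carrier and Cpt2, which rose, beside Cpt1a, which fell.
Slc25a20 (chr9:108661886-108662185, plus strand): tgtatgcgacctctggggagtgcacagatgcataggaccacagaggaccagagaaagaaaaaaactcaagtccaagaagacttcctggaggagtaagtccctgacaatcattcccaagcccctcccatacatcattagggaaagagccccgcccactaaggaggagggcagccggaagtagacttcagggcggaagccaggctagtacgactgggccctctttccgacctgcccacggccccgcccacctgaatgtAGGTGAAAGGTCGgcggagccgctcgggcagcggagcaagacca
Cpt2 (chr4:107923540-107923839, minus strand): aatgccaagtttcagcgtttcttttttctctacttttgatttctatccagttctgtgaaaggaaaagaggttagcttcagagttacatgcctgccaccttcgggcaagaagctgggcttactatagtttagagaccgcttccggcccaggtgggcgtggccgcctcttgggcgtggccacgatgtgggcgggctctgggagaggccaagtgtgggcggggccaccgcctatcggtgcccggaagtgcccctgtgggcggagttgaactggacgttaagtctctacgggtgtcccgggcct
Cpt1a (chr19:3323051-3323350, plus strand): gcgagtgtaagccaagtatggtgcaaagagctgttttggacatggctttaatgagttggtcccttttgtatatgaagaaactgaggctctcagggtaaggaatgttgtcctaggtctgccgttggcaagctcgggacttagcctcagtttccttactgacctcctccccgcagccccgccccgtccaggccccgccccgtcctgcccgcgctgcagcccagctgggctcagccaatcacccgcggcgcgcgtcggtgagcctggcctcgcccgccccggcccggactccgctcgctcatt
Each is written 5′ to 3′ along the gene. The absence of a match says only that these letters are not in the window, and a match is not a binding site.

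For each Cpt1 isoform, the 3 tested genes with the most similar profile were found by the root mean square difference over the 6 arrays, after each gene was set relative to its own WT mean. Nearest to Cpt1b was Cox7a1, a cytochrome c oxidase subunit of muscle and brown fat, at a difference of 0.193 log2 units (its log2 fold change was 3.31, adjusted p = 0.00444). The next in order, Fbp2, the muscle fructose bisphosphatase, and Cpn2, a subunit of the plasma carboxypeptidase N, were well above background on 0 and 1 of the 3 WT arrays and passed the filter only through their Zip13-KO arrays, so no distance is given for them. Both were also chosen for a rise like that of Cpt1b, so no fold change is given for them either. Nearest to Cpt1a were Igsf3 (0.0467), Atpif1, the inhibitor of the mitochondrial ATP synthase (0.0507), and Snx8, a sorting nexin (0.0519), which were all called lower, with log2 fold changes of -0.67, -0.75 and -0.68. Those nearest to Cpt1c were Cd34 (0.0490), a surface marker of stromal progenitors and endothelium, Thbs3 (0.0552), a thrombospondin, and Col1a2 (0.0614), a chain of type I collagen. Like Cpt1c, these 3 genes were not called (log2 fold changes -0.75, -0.68 and -0.67, adjusted p = 0.0983, 0.175 and 0.158). All genes named here were chosen for likeness to an isoform over the same 6 arrays. Their similar changes and calls follow from that choice and are not separate results.

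Around the shuttle, 5 lists of genes for the supply of carnitine, malonyl-CoA, fatty acid activation, beta-oxidation and transcriptional control held 50 genes, of which 47 were tested. In limma, 28 of these were called higher (59.6%, beside 10.2% of all genes) and 0 lower. At an unadjusted p under 0.05, with no limit on fold, 36 were higher and 0 lower, beside 25.3% of all genes higher and 21.8% lower by that rule. Their median log2 fold change was 0.85. The lists were chosen with earlier results of these data known, so these shares describe the chosen genes only.

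The genes that bring in carnitine, make it or pass acyl groups on beside the shuttle had a median of 0.44. Of 8 tested, 2 rose, Acot2, a mitochondrial acyl-CoA thioesterase (log2 fold change 0.99, SE 0.11, adjusted p = 0.00508), and Tmlhe, the dioxygenase that opens carnitine synthesis (0.66, SE 0.09, adjusted p = 0.00633). Slc22a5, the carnitine importer OCTN2, was at 0.55 (adjusted p = 0.00706) and Aldh9a1, another enzyme of carnitine synthesis, at 0.47 (adjusted p = 0.00867), both under the 1.5-fold limit. The peroxisomal octanoyltransferase gene Crot (0.38, adjusted p = 0.0386) lay under it too, and Slc22a4 (0.41), Slc25a29 (0.29) and Slc22a21 (0.01) had adjusted p-values of 0.0532, 0.237 and 0.950. Bbox1, the last enzyme of carnitine synthesis, and Slc22a16, another carnitine transporter, were not well above background on any array.

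On the side of malonyl-CoA, the inhibitor of CPT1, 4 of 10 genes rose. The genes of both acetyl-CoA carboxylases, which make it, were among them, the mitochondria-associated Acacb (1.56, SE 0.23, adjusted p = 0.00739) and the cytosolic Acaca (1.28, SE 0.25, adjusted p = 0.0134). So was Mlycd, the decarboxylase that removes it (0.81, SE 0.12, adjusted p = 0.00819). Among subunits of AMP-activated protein kinase, which inhibits the carboxylases, the catalytic subunit gene Prkaa2 rose (1.09, SE 0.20, adjusted p = 0.0118), and Prkaa1 was at 0.49 (adjusted p = 0.0283), under the fold limit. The other subunits ranged from Prkab2 at -0.18 (adjusted p = 0.277) over Prkab1 at -0.05 and Prkag1 at 0.05 to Prkag2 at 0.34 (adjusted p = 0.133). Thrsp, a lipogenic gene, was at 0.80 (adjusted p = 0.0730).

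The acyl-CoA synthetases, which make the substrate of CPT1, moved unevenly. Acsl3 (1.22, adjusted p = 0.00444) and Acsl1 (1.04, adjusted p = 0.0111) rose, Acsl5 (-0.00) and Acsl4 (-0.10) were not called, and Acsl6 was not well above background on any array. Beyond the shuttle, 14 of 15 beta-oxidation genes rose, and all 15 were higher in every Zip13-KO array than in every WT array (29.2% of all genes were). They ranged from Hadhb, the beta subunit of the trifunctional protein (1.36, adjusted p = 0.00689), to Eci2, an enoyl-CoA isomerase (0.56, adjusted p = 0.00729, under the fold limit). The others called were Hadha, Acaa2, Acadvl, Acadl, Acadm, Hadh, Etfdh, Acads, Eci1, Decr1, Etfb, Echs1 and Etfa, between 1.29 and 0.81. The list's median was 1.10, close to the log2 fold changes of Cpt2, Slc25a20 and Crat. With 1 array left out, between 12 and 15 beta-oxidation genes were called higher.

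Of 10 transcription factors and coregulators known to act on these genes, 6 rose, and 3 were called without Zip13-KO replicate 1. Ppara, the fatty acid-sensing nuclear receptor, led with 2.03 (SE 0.33, adjusted p = 0.00913), and Ppargc1b (1.19), Esrrg (1.15), Pparg (1.13), Ppargc1a (1.10) and Esrra (0.73) had adjusted p-values of 0.00695 to 0.0141. Rxra was at 0.54, under the fold limit, Med1 and Ppard were at 0.07 and -0.03, and the corepressor gene Nrip1 was lowest at -0.22 (adjusted p = 0.341).

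**Figure D4:**
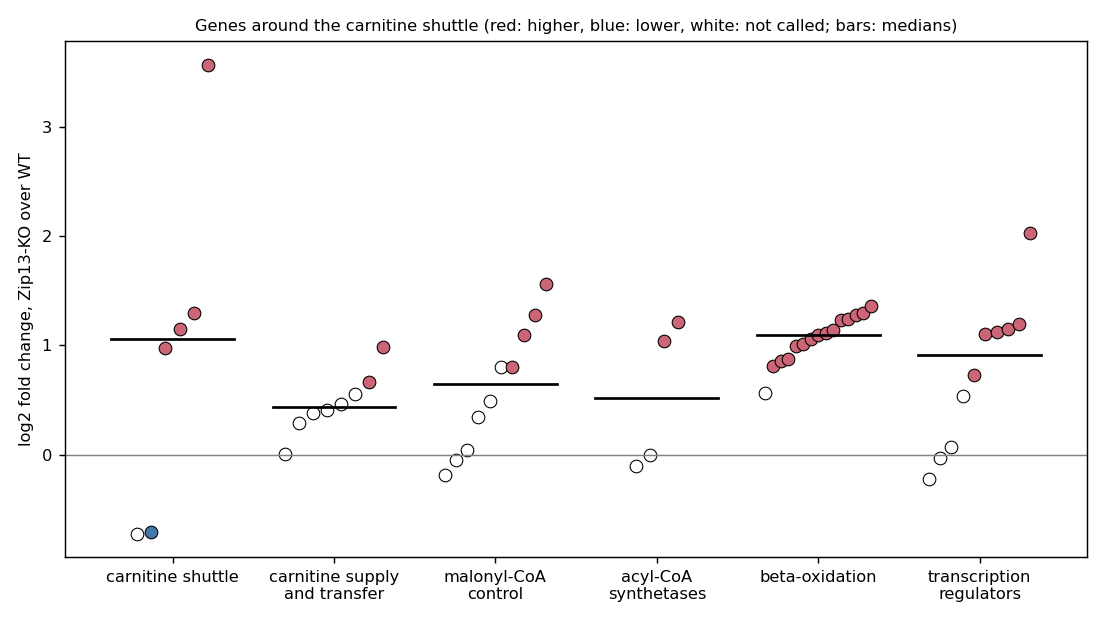
Log2 fold change of Zip13-KO over WT (vertical axis) of every tested gene of the shuttle and of the 5 lists around it (horizontal axis), 1 point per gene, with red for genes called higher, blue for genes called lower and white for genes not called, and bars for list medians. Cpt1b, at 3.56, is the highest of all points, and Cpt1a, at -0.71, is the single blue point.

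Markers of the cells that iWAT can hold were set beside the Cpt1 isoforms, and their part in the changes was not tested. The 9 adipocyte markers were all measured, with 2 called higher (Plin1 and Lipe, with 4 without WT replicate 2 and 0 without any other single array) and summed intensities of 574261 to 728001 in WT and 819110 to 843329 in Zip13-KO arrays. The 8 brown adipocyte markers all rose, from Prdm16 (0.93) to Ucp1 (5.16), and their per-array median, relative to each gene's WT mean, was 0.22, -0.45 and 0.25 in WT and 2.43, 3.24 and 2.97 in Zip13-KO replicates 1, 2 and 3. Cpt1b on the same scale was at 0.04, -0.52 and 0.48 and at 3.11, 3.95 and 3.64, with WT replicate 2 lowest and Zip13-KO replicate 2 highest in both. The summed intensity of the brown markers was 35839 to 57720 in WT and 161145 to 256236 in Zip13-KO arrays. Elovl3 was well above background on 2 of the 3 WT arrays and passed the filter only through its Zip13-KO arrays. With the filter set to all 6 arrays, 7 brown markers were left, all called higher. Their median log2 fold change was then 2.25, beside 2.78 for the 8. With 1 array left out, between 6 and 8 were called. Cox7a1, the gene of muscle and brown fat nearest to Cpt1b in profile, is among the 8.

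Skeletal muscle, the other main site of Cpt1b, had 20 of 23 markers tested, with Casq1, Myh1 and Tnni1 not well above background on all arrays of either genotype. Myl1 was called higher (1.01), Tnnt1 was called lower and was the lowest of the list (-0.69), and the highest, Mb, did not pass (2.37, SE 0.83, adjusted p = 0.0712). Their per-array median was -0.07, -0.25 and 0.36 in WT and -0.06, 0.49 and 1.36 in Zip13-KO replicates 1, 2 and 3, and the summed intensities were 7798 to 11928 and 12137 to 22279. Cpt1b was at 3.11, 3.95 and 3.64 in the same Zip13-KO arrays. In WT the muscle medians had the same order of arrays as Cpt1b, with replicate 2 lowest. In Zip13-KO, replicate 3 was highest for the muscle medians and replicate 2 for Cpt1b. Without any 1 of the Zip13-KO arrays, 0 muscle markers were called higher in limma. Over all arrays, 4 were higher and 2 lower at an unadjusted limma p under 0.05. By that rule 25.3% of all genes were higher and 21.8% lower.

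Macrophage markers fell, 11 of 12, between Trem2 (-3.84) and the uncalled Itgam (-0.17), and their summed intensity was 107605 to 180134 in WT and 48766 to 66020 in Zip13-KO arrays. With 1 array left out, between 8 and 11 macrophage markers were called lower. Their per-array median, at 0.42, -0.07 and -0.28 in WT and -1.42, -1.77 and -1.04 in Zip13-KO replicates 1, 2 and 3, stood beside Cpt1a at 0.35, -0.17 and -0.18 and at -0.72, -0.81 and -0.60. Stromal and endothelial markers, all 9 of them tested, had 1 gene called higher (Cdh5, 0.77) and 2 lower (Pdgfra, -0.65, and Dpp4, the lowest, -1.05), with summed intensities of 153677 to 302971 in WT and 144683 to 178267 in Zip13-KO arrays. Their median was 0.33, -0.02 and -0.38 in WT and -0.34, -0.47 and -0.26 in Zip13-KO arrays, and Cpt1c was at 0.67, -0.02 and -0.64 and at -0.77, -0.86 and -0.55. Within each genotype, the macrophage list, the stromal and endothelial list, Cpt1a and Cpt1c all shared 1 order of arrays, so neither list goes with only one of these isoforms. The stromal count of lower calls was 0 without WT replicate 2 or Zip13-KO replicate 1 or 2, 1 without WT replicate 1 or Zip13-KO replicate 3 and 4 without WT replicate 3.

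Neuronal and Schwann cell markers, the cells that Cpt1c is known from, had 13 of 15 tested, with Nefl and Nefm not well above background on all arrays of either genotype, S100b called higher (0.84), Uchl1 (-0.75) and Tubb3 (-1.33) called lower and summed intensities of 20736 to 22730 in WT and 21340 to 24217 in Zip13-KO arrays. None of 4 tested mammary epithelium markers or of 5 tested cardiac and smooth muscle markers was called in limma. At an unadjusted limma p under 0.05, 1 mammary marker was higher. Of the cardiac and smooth muscle markers, 2 were higher and 1 lower, beside 25.3% of all genes higher and 21.8% lower.

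**Figure D5:**
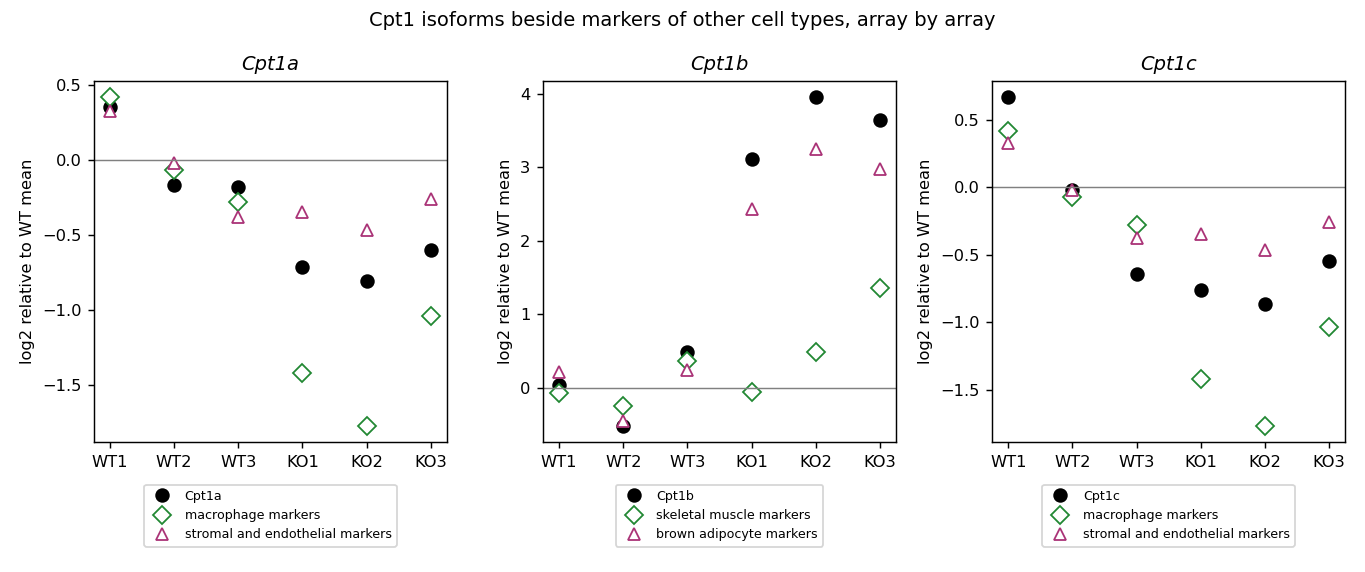
Level of each Cpt1 isoform (black circles) and per-array medians of marker lists (open symbols), all as log2 relative to the WT mean (vertical axis), on the 6 arrays. The Cpt1a and Cpt1c panels show macrophage markers (diamonds) and stromal and endothelial markers (triangles), the Cpt1b panel skeletal muscle markers (diamonds) and brown adipocyte markers (triangles). In the Zip13-KO arrays, Cpt1b lies between 3.11 and 3.95, the brown medians between 2.43 and 3.24 and the muscle medians between -0.06 and 1.36, and the macrophage and stromal medians keep the order of both Cpt1a and Cpt1c within each genotype.

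A single slide, read in 1 scan, held the 6 arrays. Its column 1 carried all of WT and replicate 1 of Zip13-KO, and its column 2 the remaining Zip13-KO arrays. The column was read from the position at the end of each array's barcode, which does not name it as a column or a row. Since column 2 held no WT array, a fit with the column as a term, or of column 1 alone, compares Zip13-KO replicate 1 by itself with WT. The log2 fold changes were then -0.72 for Cpt1a, 3.11 for Cpt1b, 1.16 for Slc25a20, 1.10 for Cpt2 and 0.98 for Crat with the term, and -0.71, 3.10, 1.15, 1.09 and 0.98 in column 1 alone. None of the 6 genes (0 in either fit) passed the adjusted limma test with this single array, and 5 and 4 of them had an unadjusted p under 0.05. Of all genes tested, 7 and 24 were called and 4803 and 3766 had an unadjusted p under 0.05.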

How the data were processed

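Each of 6 iWAT RNA samples (3 WT and 3 Zip13-KO by the labels) was labelled with a single dye and hybridized to an Agilent SurePrint G3 mouse array. The authors deposited scanner files of Feature Extraction 11.5.1.1 with a processed signal for each spot, in intensity units, corrected for background and spatial trend but not normalized between arrays. The deposited values table holds log2 of the median signal, quantile normalized by the authors, as a comparison with the scanner signals showed.

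Processed signals were taken as log2, without control spots and outlier flags, averaged over spots of a probe and quantile normalized. Probes not well above background on all 3 arrays of either genotype were removed, which left 33038 of 55681. Probes were named through RefSeq accessions (28331 probes, 50.9%). Names come from GRCm38.p6 while the design uses mm9, so the only positions printed are those of the RefSeq promoter windows. The brightest kept probe stood for a gene. Genotypes were compared with limma 3.58.1 in R 4.3.3. Isoform pairs were compared by exact permutation. The number of arrays limits the precision, and the median local background was 35 to 39.5 intensity units in WT and 31 to 36 in Zip13-KO arrays. The steps were tested on simulated data.

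Genes named are the shuttle genes, all genes of the lists for carnitine supply and malonyl-CoA control, the extremes and called genes of the lists for acyl-CoA synthetases, beta-oxidation and regulators, the 3 genes nearest to each Cpt1 isoform, Chkb, Slc39a13, and the extremes and calls of marker lists (adipocyte, brown adipocyte, skeletal muscle, cardiac and smooth muscle, macrophage, stromal and endothelial, neuronal and Schwann cell, mammary epithelium). A further marker list is not reported here. The shuttle genes and lists were chosen with earlier results of these data known. Alternatives were other scalings, background corrections, filters, probe choices, tests, thresholds, blocks, and leaving out each array.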

Additional observations from a re-analysis of the deposited data

How the results depend on the processing

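No shuttle gene changed direction under any alternative run, and between the 4 background corrections and scalings, including the deposited table, Cpt1b ranged from 2.92 to 3.57. The slide column, as a term or with column 1 alone, ended all calls on shuttle genes (0 and 0 of 6) and on the lists around them (0 and 0, with 34 and 30 at an unadjusted p under 0.05) and left 7 and 24 genes called of all. In these fits Cpt1a was at -0.72 and -0.71 (adjusted p = 0.136 and 0.219), Cpt1b at 3.11 and 3.10 (0.0578 and 0.141), Cpt2 at 1.10 and 1.09 (0.0819 and 0.165), Slc25a20 at 1.16 and 1.15 (0.0578 and 0.141) and Crat at 0.98 and 0.98 (0.0832 and 0.168). Both fits rest on Zip13-KO replicate 1 alone, since column 2 held no WT array. Cpt1a (-0.71) also lost its call in the methods' t-test after Benjamini-Hochberg adjustment (adjusted p = 0.0652), run here without the median-ratio test that the methods combine it with, and at an adjusted p under 0.01. All genes called were 1711 in that t-test, 1204 at an adjusted p under 0.01 (18 in the lists) and 5281 with no fold limit.

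Leaving out each array, Cpt1a ranged from -0.80 to -0.53, Cpt1b from 3.31 to 3.81, Cpt1c from -1.04 to -0.39, Cpt2 from 0.95 to 1.30, Slc25a20 from 1.19 to 1.38 and Crat from 0.80 to 1.10. Between 4 and 6 shuttle genes, 24 and 31 list genes and 1710 (without Zip13-KO replicate 1) and 3078 genes in all were called, with 1786 without Zip13-KO replicate 2. The shift of Cpt1b against Cpt1a was 3.64 after normexp correction and 3.69 with the dimmer probes, a setting chosen after seeing the data, and that against Cpt1c 3.43 after normexp. The cause was not tested.

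With the replicate number as a block, 5 shuttle genes and 2309 genes in all were called. Arrays of the same number did not deviate together (r = -0.02, 0.04 and -0.08), and 0 WT arrays correlated best with their own number. No pairing by number was seen, which does not exclude a pairing with little shared variation. The block changed no call on a shuttle gene. Changes under 1.5-fold in dim probes are limited by the number of arrays.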
